A study of Mus musculus with 6 samples.

Results

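The 10 genes described here belong to the interleukin-1 system and its neutrophil-attracting output, and they were followed by cell source: the ligands Il1a and Il1b, the receptor antagonist Il1rn, the signalling receptor Il1r1, the decoy receptor Il1r2, the chemokines Cxcl1, Cxcl2, Cxcl3 and Cxcl5, and the prostaglandin synthase Ptgs2. The rows were taken by gene symbol, and 10 of the 31053 genes counted matched. The data were single-cell RNA counts from droplets of mouse YUMM2.1 samples, a cultured mouse melanoma line. The samples form 1 library labelled Empty vector (EV) and 1 labelled Bmal1 WT (WT), each holding 3 replicates that antibody hashtags tell apart (h1, h7 and h8 for EV, h3, h5 and h9 for WT). The study's methods describe lentiviral EV and WT lines sorted for GFP, made both in the parental line and in a Bmal1-null clone. Which of these was used here, the promoter of the vector, the host mice, their age and the time of harvest are not given in the labels. Files labelled Bmal1 bHLH were not analysed here, because they were identical to those of WT.

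Of the barcodes, 3978 passed the cell filter in EV and 2386 in WT, with a median of 5094 and 7570.5 unique molecular identifiers (UMIs, 1 per captured molecule), and 3222 and 1621 of them carried exactly 1 hashtag. The libraries shared 3 kept barcodes. Although the labels name a cell line as source, most barcodes carried immune markers: macrophage- or monocyte-like clusters held 1157 cells, dendritic-cell-like 838, fibroblast-like 356, melanoma-like 410, T-cell-like 1608 and NK-cell-like 1517. Arntl, which encodes Bmal1, was counted at 55.7, 113 and 52.8 CPM (UMIs per 1000000 UMIs of the cells summed) in the melanoma-like cells of EV and at 50, 61.2 and 61.1 CPM in those of WT. The groups overlapped, and since the counts come from 3′ ends and no source used here gives the 3′ end of the vector transcript, this level does not check the labels. EV and WT below therefore mean the libraries so labelled. Nothing says that the hashtags mark separate animals, so p-values measure the spread between hashtagged samples within 1 library per group.

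IL-1α and IL-1β both signal through IL-1 receptor 1, and the antagonist occupies that receptor without signalling, while IL-1 receptor 2 binds ligand and passes no signal on. Signalling through the receptor and MyD88 activates NF-κB and induces the CXC chemokines that draw neutrophils through Cxcr2, together with cyclooxygenase-2, the Ptgs2 product. In tumours, myeloid cells and fibroblasts are well known sources of these factors.

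The members lie on 3 chromosomes (GRCm38). Il1r2 and Il1r1 are neighbours on chromosome 1 (40074079-40125231 and 40225080-40317257, plus strand), where Ptgs2 also lies (150100031-150108227, plus strand). On chromosome 2 lie Il1rn (24336853-24351494, plus strand), Il1a (129299610-129309972, minus strand) and Il1b (129364570-129371139, minus strand). Il1a and Il1b overlap annotated antisense genes, Gm14023 and Il1bos. The chemokine genes follow each other on the plus strand of chromosome 5, from Cxcl5 (90759360-90761624) and Cxcl3 (90786103-90789600) to Cxcl1 (90891241-90893115) and Cxcl2 (90903871-90905938).

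The start regions of 3 of these chemokine genes and of Ptgs2 are shown because their levels can be set beside a shared or a different motif. Each line gives 100 bases of the plus strand, from 120 to 21 bases before the RefSeq start (GRCm38.p6), at chr5:90891125-90891224, chr5:90903779-90903878, chr5:90785981-90786080 and chr1:150099911-150100010. Capitals mark an NF-κB motif, the same 10 letters in the 3 chemokine genes, and the C/EBP motif TTGCGCAA in Ptgs2.
Cxcl1: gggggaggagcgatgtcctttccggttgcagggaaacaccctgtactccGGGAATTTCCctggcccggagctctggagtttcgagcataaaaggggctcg
Cxcl2: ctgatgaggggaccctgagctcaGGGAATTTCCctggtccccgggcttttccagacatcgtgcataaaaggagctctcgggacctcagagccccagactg
Cxcl3: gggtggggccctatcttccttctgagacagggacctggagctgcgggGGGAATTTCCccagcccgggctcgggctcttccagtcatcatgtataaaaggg
Ptgs2: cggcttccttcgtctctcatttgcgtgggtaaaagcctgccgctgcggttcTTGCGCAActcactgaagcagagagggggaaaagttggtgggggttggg
The capitalized NF-κB motif, searched on both strands in the 250 bases before each start, began 71 bases before the start of Cxcl1, 97 before that of Cxcl2 and 73 before that of Cxcl3, and was held by 28 of 32851 such windows (0.0852%). The C/EBP motif, a palindrome, began 69 bases before the start of Ptgs2 and was held by 54 windows (0.164%). These matches describe the sequence and are not measured binding sites. The levels of the genes by cell class follow.

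Myeloid cells were the main source of both ligands, the antagonist, Cxcl2, Cxcl3 and Ptgs2. Fibroblast-like cells were the source of Cxcl5 and held the largest share of Il1r1, 49.8% ± 17.5 of its UMIs (SD, n = 6), and dendritic-cell-like cells of most Il1r2. Melanoma-like cells were at or near 0 for every member. Classes came from clusters made without the members, so the levels below were not used to form them.

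**Figure D1:**
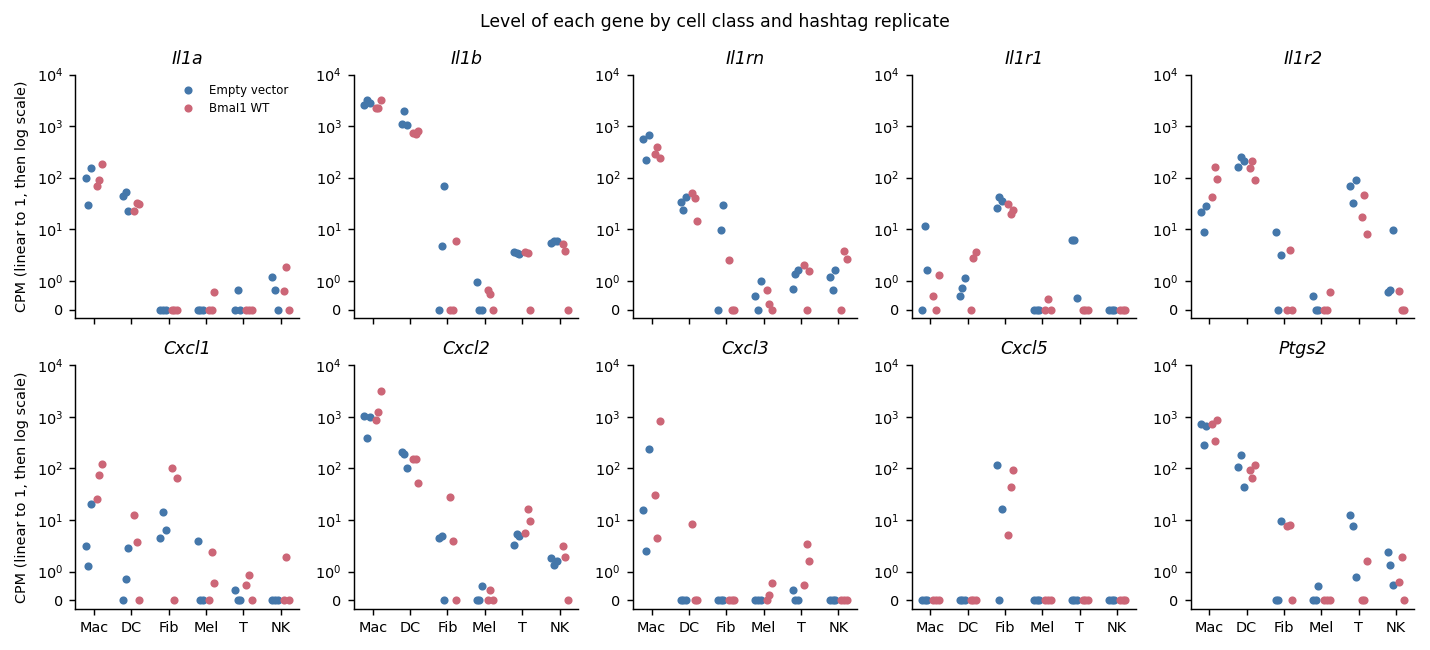
Level of each member in CPM (linear to 1, then a log scale) in macrophage- or monocyte-like (Mac), dendritic-cell-like (DC), fibroblast-like (Fib), melanoma-like (Mel), T-cell-like and NK-cell-like cells, with 1 point for each of 3 Empty vector (blue) and 3 Bmal1 WT (red) replicates. Il1b lies above 2000 CPM in every macrophage- or monocyte-like replicate, while Cxcl5 is above 0 in fibroblast-like cells only.

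In macrophage- or monocyte-like cells Il1b, the secreted ligand that needs caspase-1 for release, was counted at 2577, 3244 and 2812 CPM in EV and at 2260, 2277 and 3138 CPM in WT. These were the highest values of the gene in any class tested, with dendritic-cell-like cells next, at 699 to 1957 CPM. The class held 71.5% ± 11.4 of the Il1b UMIs of a replicate (SD, n = 6), and 77.4% of its EV cells and 72.2% of its WT cells had an Il1b UMI. Il1a, the ligand that also acts from the cell surface, was far scarcer in that class, with 619 UMIs against 16399 of Il1b in EV and 400 against 10014 in WT. Its macrophage levels were 97.1, 29.0 and 151 CPM in EV and 69.3, 90.3 and 180 CPM in WT.

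Il1rn, the antagonist, had the same leading class as the ligands but a smaller dendritic-cell-like share. Its levels were 567, 222 and 665 CPM in the macrophage- or monocyte-like cells of EV and 291, 394 and 245 CPM in those of WT, against 14.6 to 49.5 CPM in dendritic-cell-like cells. Dendritic-cell-like cells held a mean of 8.84% of its UMIs over the replicates, against 28.0% of those of Il1b and 29.1% of those of Il1a. Macrophage- or monocyte-like cells held 90.1% ± 4.88 of the Il1rn UMIs (SD, n = 6). Ptgs2 was at 720, 283 and 663 CPM in EV and 724, 333 and 855 CPM in WT in the same cells. Dendritic-cell-like cells had 42.9 to 178 CPM of Ptgs2, below every macrophage value.

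Cxcl2 was the most widely spread of the chemokines among myeloid cells: 1045, 385 and 1006 CPM in the macrophage- or monocyte-like cells of EV and 857, 1231 and 3098 CPM in WT, with 51.0 to 207 CPM in dendritic-cell-like cells. Cxcl3 lay mostly in macrophage- or monocyte-like cells, which held 99.8% of its EV library UMIs and 96.5% of its WT library UMIs, though 82.6% of the 683 WT UMIs of the class came from 1 cell. The mean share over the replicates was 87.7% ± 20.2 (SD, n = 6), with the lowest at 50%. Its replicates differed widely, at 15.7, 2.53 and 240 CPM in EV and 30.1, 4.51 and 814 CPM in WT. In replicate h9, 91.9% of the 614 Cxcl3 UMIs came from 1 cell, and in h8 43.7% of 442 did. The Cxcl3 level of a replicate therefore rests on few cells, 9 with a UMI in h9 and 15 in h8.

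The highest class stood above the next in 6 of 6 replicates for Il1b, Il1rn, Il1r1, Cxcl2, Cxcl3 and Ptgs2. Each of these gave p = 0.0312 in an exact two-sided sign-flip permutation test over the 6 replicates, the smallest it can give, and an adjusted p of 0.0521 over the 10 members, which misses 0.05. The classes compared were picked by their mean over the same 6 replicates. The p-values of this test do not allow for that choice and describe the order only. The adjusted p was 0.0446 for 7 of 10 members under each of 3 alternatives, with hashtags called by centred log counts, at a finer clustering or with cells gated on markers. For Il1a, Il1r2 and Cxcl5 the order held in 5 of 6 replicates (p = 0.0625, exact permutation, adjusted p = 0.0694). The exceptions were h7 for Il1a, with 29.0 CPM in macrophage- or monocyte-like against 52.4 CPM in dendritic-cell-like cells, h9 for Il1r2, and h7 for Cxcl5, where no UMI was found. For Cxcl1 the order of macrophage- or monocyte-like and fibroblast-like cells was not resolved, with 3 of 6 replicates each way (p = 0.719, exact permutation).

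Cxcl5 was the most fibroblast-bound member. All Cxcl5 UMIs of hashtagged cells lay in fibroblast-like cells, at 118, 0 and 16.1 CPM in EV and 5.14, 43.4 and 93.9 CPM in WT. In the 1157 macrophage- or monocyte-like cells no UMI was found, with an exact Poisson 95% upper limit of 0.363 CPM (floor of 3 UMIs, 0.295 CPM). The gene was held by few cells, with UMIs in 46 of 356 fibroblast-like cells, and 90.2% of all its UMIs came from cluster 10, led by Lum, Ccl11 and Dcn. Il1r1, the receptor that both ligands need, was at 26.2, 43.0 and 35.5 CPM in the fibroblast-like cells of EV and 30.8, 19.7 and 23.5 CPM in those of WT. Fibroblast-like cells thus held the receptor at 19.7 CPM or above in every replicate, and macrophage- or monocyte-like cells at 11.4 CPM or below. Cluster 10 had Il1r1 at 31.5 CPM and cluster 23, fibroblast-like and led by Lox, Adm and Ndufa4l2, at 32.9 CPM. The 2 clusters differed more in Cxcl5, 51.3 against 4.38 CPM, and in the opposite direction in Ptgs2, 6.92 against 97.9 CPM (exact Poisson 95% intervals 4.70 to 9.82 and 82.0 to 116, counting error only). In cluster 23, 1 cell held 57.5% of the 134 Ptgs2 UMIs, and the level was 42.0 CPM without it.

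Cxcl1 was shared between stroma and myeloid cells. Over whole libraries, fibroblast-like cells held 78.9% of its EV UMIs and 45.6% of its WT UMIs, and macrophage- or monocyte-like cells 16.6% and 39.8%. Among hashtagged cells the mean share over the replicates was 20.5% ± 23 in fibroblast-like and 59.7% ± 26.1 in macrophage- or monocyte-like cells (SD, n = 6). As with Cxcl5, few cells carried it: 18 of 143 fibroblast-like cells in EV and 38 of 213 in WT, and 5 cells held 76.5% of the 285 UMIs of the EV class.

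In melanoma-like cells the pooled level of Cxcl1 was 2.34 CPM (exact Poisson 95% interval 1.76 to 3.05), the highest of the members there, and 1.52 CPM without the cells with several hashtags. Il1b was at 0.953 CPM, Ptgs2 at 0.650 CPM and Cxcl2 at 0.433 CPM, against 2598, 640 and 1102 CPM over all macrophage- or monocyte-like cells. Il1a, Il1r2 and Cxcl3 had 3 UMIs or fewer in 410 cells. Cxcl5 had 0, with an exact Poisson 95% upper limit of 0.160 CPM (floor of 3 UMIs, 0.130 CPM). The class was named from 11 melanoma markers, of which 9 were detected, and these summed to 1375 to 1985 CPM in EV and 821 to 1103 CPM in WT. Mlana and Tyrp1 were at 0.

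Smaller clusters outside the myeloid and stromal classes held a minor part of the receptor UMIs. Cluster 11 held 13.8% of all Il1r2 UMIs, against 56.8% in the dendritic-cell-like cluster 3. Cluster 18 held 5.99% of all Il1r1 UMIs, against 52.8% in the fibroblast-like cluster 10. Il1r2 was at 332 CPM (exact Poisson 95% interval 301 to 366) in cluster 11, 190 T-cell-like cells led by Foxp3, Il2ra and Ctla4, where 25.8% of cells had a UMI. There 1 cell held 32.6% of the 411 UMIs, and the level was 228 CPM without it. The level in cluster 11 was 417 CPM in EV and 119 CPM in WT. Il1r1 was at 150 CPM (85.9 to 244) in cluster 18, 21 T-cell-like cells led by Il17a, Cd163l1 and Trdc, all from EV, where 11 cells had a UMI. Cluster 20, 23 mast-cell-like cells, had Ptgs2 at 712 CPM and Il1b at 530 CPM, from 5 and 3 cells. There 1 cell held 90.4% of the 73 Il1b UMIs, and the level was 57.9 CPM without it. For Ptgs2, 1 cell held 38.8% of the 98 UMIs, and the level was 463 CPM without it.

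**Figure D2:**
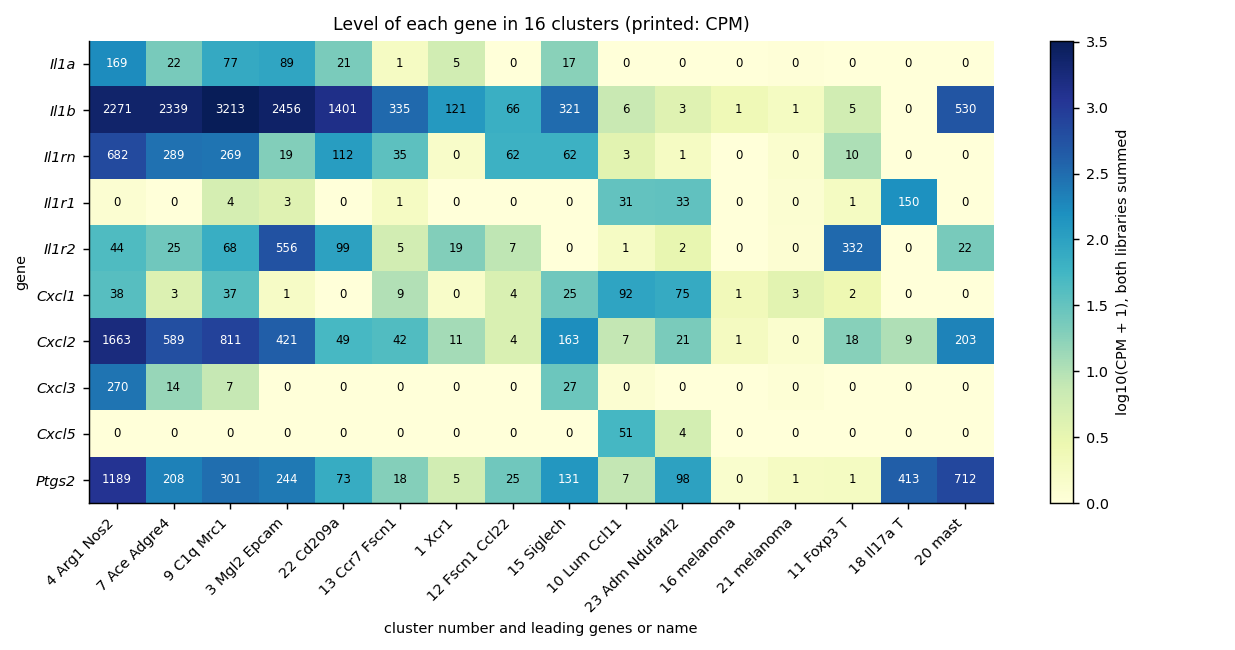
Level of each member in 16 clusters, as CPM printed in each cell and as log10(CPM + 1) by colour, with the cells of both libraries summed. Cluster 4 holds the highest Cxcl2, Cxcl3, Ptgs2 and Il1rn, cluster 3 the highest Il1r2, cluster 10 the highest Cxcl5, and clusters 16 and 21 (melanoma-like) are near 0 throughout.

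Within the macrophage- or monocyte-like class the antagonist, Ptgs2, Cxcl2 and Cxcl3 were concentrated in cluster 4, whereas Il1b was not. Cluster 4 was led by Slfn4, Nos2, Arg1 and the heat-shock genes Hspa1a and Hspa1b besides Cxcl3 and Ptgs2, cluster 7 by Ace and Adgre4, and cluster 9 by C1qa and Mrc1. Cluster 4 was the highest of the 3 in 6 of 6 replicates for Ptgs2, at 882 to 1389 CPM against 88.1 to 635 CPM in the others, and in 6 of 6 for Il1rn. It was the highest in 5 of 6 replicates for Il1a, Cxcl2 and Cxcl3, with h7, where it held 8 cells, as the exception for each. For Cxcl1 it was the highest in 4 of 6, and the pooled level was 38.2 CPM in cluster 4, 37.2 CPM in cluster 9 and 3.37 CPM in cluster 7. For Il1b it was the highest in 0 of 6 replicates, at 1808 to 2835 CPM against 1725 to 4497 CPM. Cluster 4 held 93.0% of all Cxcl3 UMIs, 63.2% of Ptgs2 and 57.7% of Il1rn, with 7.54% of all cells. These are descriptions of clusters and carry no test.

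The share of cluster 4 differed between replicates. It gave 44.6, 8.21 and 54.2% of the UMIs of the class in EV and 49.1, 24.3 and 37.8% in WT. Replicate h7, with the smallest share, had the lowest class level of Il1a, Il1rn, Cxcl2, Cxcl3 and Ptgs2 and the highest of Il1b. Its part in these levels was not tested. Within cluster 4 the Ptgs2 level of h7 was 1015 CPM, inside the range of the other replicates, 882 to 1389 CPM.

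**Figure D3:**
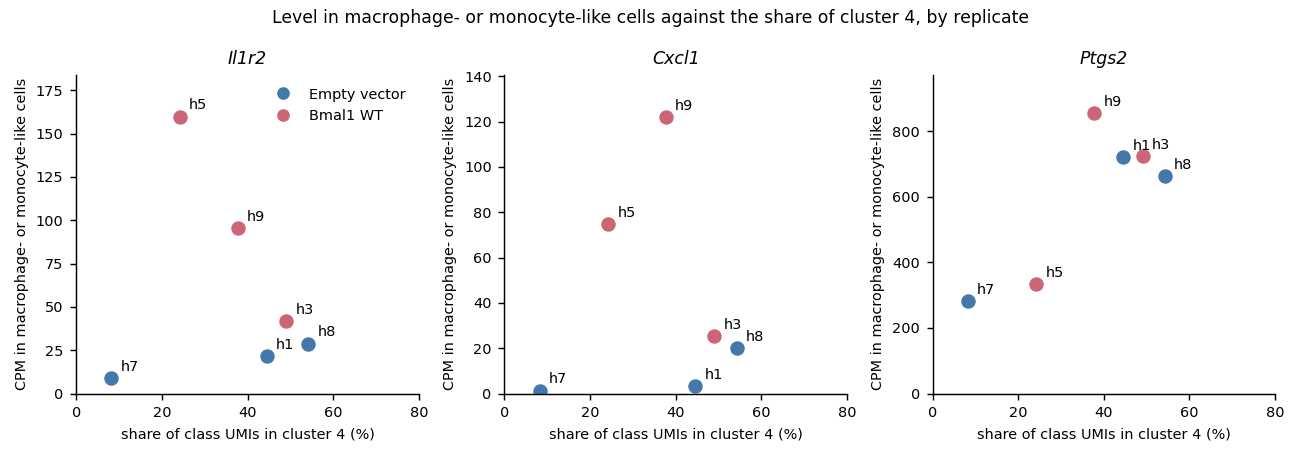
Class level in macrophage- or monocyte-like cells in CPM against the percentage of the class UMIs that came from cluster 4, with 1 labelled point for each replicate (blue, Empty vector; red, Bmal1 WT). Ptgs2 is lowest in h7 and h5, where cluster 4 gave 8.21 and 24.3% of UMIs, whereas Il1r2 and Cxcl1 are higher in the 3 WT replicates than in the 3 EV replicates.

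Within the dendritic-cell-like class, cluster 3, led by Mgl2, Plet1, Ffar2 and Epcam, held both Il1b and the decoy receptor. Its Il1r2 level was 558, 448 and 630 CPM in EV and 507, 891 and 407 CPM in WT, above clusters 1, 13 and 22 in 6 of 6 replicates, and 95.2% of its cells had an Il1r2 UMI. With 2.61% of all cells it held 56.8% of all Il1r2 UMIs. Its Il1b level was 3083, 3169 and 2195 CPM in EV and 1365, 1926 and 2300 CPM in WT, near that of the macrophage- or monocyte-like clusters. Il1rn was nearly missing from it, at 0 to 39.8 CPM. For every 100 Il1b UMIs, cluster 3 held a median of 0.355 Il1rn UMIs over the replicates (range 0 to 2.92) and cluster 4 a median of 26.7 (range 11.8 to 39.2), so the ranges did not overlap. The macrophage- or monocyte-like clusters 7 and 9 held medians of 9.17 (4.40 to 24.7) and 6.38 (4.11 to 15.8). Cluster 13, led by Ccr7 and Fscn1, held 15.7 (4.19 to 20.4), with Il1b at 187 to 1434 CPM, and cluster 22 held 6.99 (0 to 14.7). Cluster 1, led by Xcr1 and Clec9a, held 0 (0 to 1.27), so the low ratio was not particular to cluster 3. The Il1b level of cluster 1 was the lowest of clusters 1, 3, 13 and 22 in the pooled libraries, 121 CPM.

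Across the 23 clusters of at least 30 cells, the genes whose level was most like that of Il1rn were Osm, Ptafr and Fcgr1 (Pearson r = 0.959, 0.946 and 0.936 of log2(CPM + 10), among 7495 genes). For Cxcl2 and Ptgs2 the first was Sirpa (r = 0.948 and 0.930), and for Cxcl3 it was Rhov (r = 0.937). For Il1r2 the likeness was weaker, with Ffar2 first (r = 0.818). For Cxcl1 it was Cxcl14 (r = 0.900) and for Il1r1 6030408B16Rik (r = 0.918). For Cxcl5, r with Cyp1b1 was 1.0, which rests on cluster 10, where both are high. Between members, Cxcl2 and Ptgs2 had r = 0.944 and Cxcl1 and Cxcl2 r = 0.425. The clusters share libraries and depth, so these values are descriptions.

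The comparison of WT with EV asks whether the level of these genes in each class differs between the libraries so labelled. Each group is 1 library, so a difference that goes with the vector cannot be told apart from one between libraries. In bulk sums of a class, fewer expressing cells and less RNA per cell cannot be told apart. No member passed the test in any class (edgeR quasi-likelihood on genes with at least 20 UMIs, adjusted p under 0.05 over all genes tested). In macrophage- or monocyte-like cells 0 of 8 members tested were called, where 0 of 10082 genes (0%) were and 1026 (10.2%) had an unadjusted p below 0.05, among them Il1r2 and Cxcl1. In dendritic-cell-like cells 0 of 7 members were called, where 36 of 10574 genes (0.34%) were, and 1 of 7, Il1b, had an unadjusted p below 0.05 (14.7% of all genes). In fibroblast-like cells 0 of 4 were called (0 of 8414 genes, 0%), and 2 of 4, Cxcl1 and Il1b, had an unadjusted p below 0.05 (6.45% of all genes). In melanoma-like cells 0 of 1 was called (0 of 11357 genes, 0%), with an unadjusted p below 0.05 for 3.98% of all genes. By tool, DESeq2 called 10, 161, 6 and 4 genes in these 4 classes.

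Il1r2 and Cxcl1 were higher in every WT replicate than in every EV replicate of the macrophage- or monocyte-like class, and they were the only members of the 8 tested whose groups did not overlap there. Such separation was found with WT higher for 7.75% of all genes tested, with WT lower for 8.8% and either way for 16.5%. Il1r2 was at 21.7, 8.84 and 28.8 CPM in EV and 41.6, 160 and 95.5 CPM in WT, a log2 fold change of 2.19 ± 0.49 (SE, adjusted p = 0.377). DESeq2 called it (adjusted p = 0.00618), as did edgeR with every gene of at least 1 UMI in the fit (6.11e-05). That last fit called 65 genes with WT higher and 33 with WT lower among 15340 genes in this class, where the main fit called 0. Cells with an Il1r2 UMI made up 6.63% of the EV class and 18.7% of the WT class, and 6.71% and 18.4% without those with several hashtags. After each cell was thinned to 2000 UMIs, which left out 83 of 739 EV and 69 of 418 WT cells, the shares were 2.51% ± 0.89 and 11.5% ± 7.41 (SD, n = 3 each), 5.43% or above in every WT replicate and 3.37% or below in every EV replicate. An exact two-sided permutation test gave p = 0.10, the smallest that 3 against 3 can give. NK-cell-like cells, which should lack the gene, had 0.115% ± 0.199 and 0% at the same depth (median UMIs before thinning 4080 and 5989.5, against 6785 and 9172 in the class).

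Cxcl1 was at 3.14, 1.26 and 20.1 CPM in EV and 25.3, 74.9 and 122 CPM in WT in these cells (log2 fold change 3.00 ± 0.76, SE, adjusted p = 0.377, and 7.56e-05 with edgeR on every gene of at least 1 UMI). It came from 11 of 739 cells in EV and 24 of 418 in WT. In h9, 72.8% of its 92 UMIs lay in 1 cell, and in h8 62.2% of 37 did. By cluster, the difference was 4.71 ± 0.93 in the C1qa-led cluster 9 and 2.65 ± 0.99 in cluster 4 (adjusted p = 0.237 and 0.523). That of Il1r2 was 2.70 ± 0.43 in cluster 4, where it had the smallest p of all genes tested (adjusted p = 0.119). In cluster 4 Il1r2 was at 15.7, 15.4 and 17.0 CPM in EV and 55.6, 164 and 126 CPM in WT.

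Neutrophil markers moved with the groups in the same class. Their sum was 19.6 to 39.1 CPM in EV and 319 to 1790 CPM in WT, with 7 of 9 detected and Ngp and Camp at 0. Cells with 2 or more of these markers numbered 1 of 739 in EV and 15 of 418 in WT. They held 11% of the Il1r2 UMIs and 6.90% of the Cxcl1 UMIs of the WT class. Without them, the log2 fold change of Il1r2 was 2.0 ± 0.49 (adjusted p = 0.345) and its groups still did not overlap, at 42.5, 150 and 65.2 CPM in WT. That of Cxcl1 was 2.97 ± 0.83 (adjusted p = 0.345), and its groups then overlapped, with 18.1 CPM in h3 and 20.1 CPM in h8.

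In CPM, the other members did not separate in macrophage- or monocyte-like cells. Without thinning, cells with a Cxcl2 UMI made up 30.7 to 42.4% of the class in the EV replicates and 44.1 to 53.8% in the WT replicates. An exact permutation test gave p = 0.10, the smallest possible. Il1rn had a log2 fold change of -0.65 ± 0.35, Cxcl2 of 1.08 ± 0.49, Il1b of -0.17 ± 0.15, Il1a of 0.21 ± 0.50 and Ptgs2 of 0.19 ± 0.39. For Cxcl3 it was 1.63 ± 1.54 and turned to -2.22 without replicate h9, where 1 cell held 91.9% of its UMIs. For Cxcl2 it was 0.36 without that replicate, and with edgeR on every gene of at least 1 UMI its adjusted p was 0.0437. Il1rn in cluster 7 was at 386, 194 and 425 CPM in EV and 152, 164 and 206 CPM in WT (log2 fold change -1.0 ± 0.27, adjusted p = 0.213), where h7 lay below h9.

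**Figure D4:**
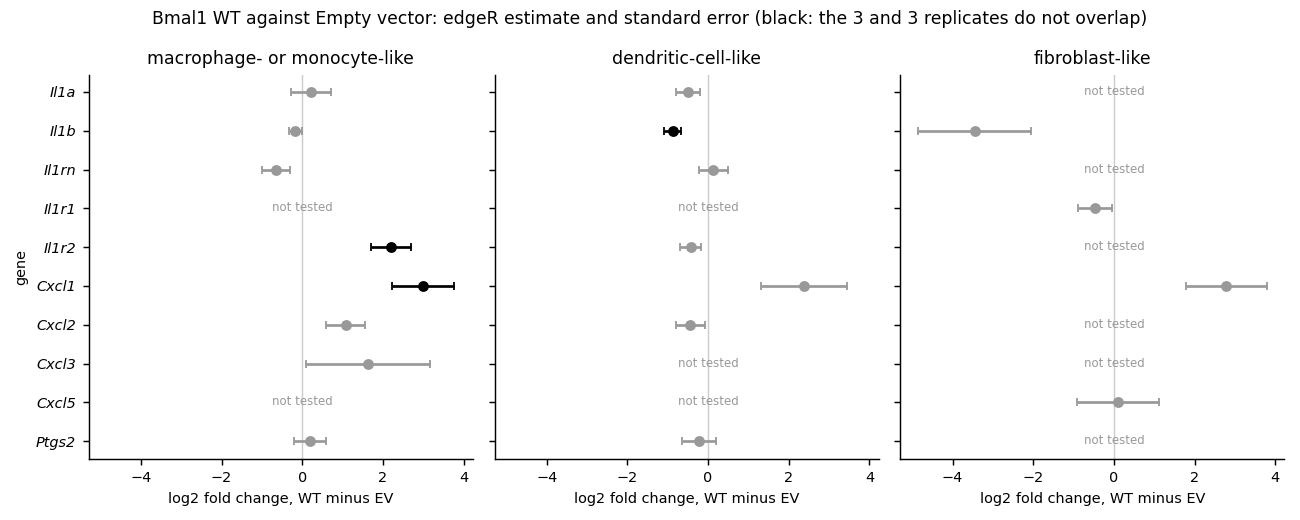
Log2 fold change of WT minus EV for each member in macrophage- or monocyte-like, dendritic-cell-like and fibroblast-like cells (point, edgeR estimate; bar, standard error; black where the 3 WT and 3 EV replicates do not overlap). Il1r2 and Cxcl1 are black at 2.19 and 3.00 in macrophage- or monocyte-like cells and Il1b is black at -0.88 in dendritic-cell-like cells, and no adjusted p was under 0.05.

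In dendritic-cell-like cells Il1b was lower in every WT replicate. It was at 1103, 1957 and 1058 CPM in EV and 734, 699 and 803 CPM in WT, a log2 fold change of -0.88 ± 0.21 (SE, adjusted p = 0.114 with edgeR, 1.46e-05 with edgeR on every gene of at least 1 UMI and 0.00737 with DESeq2). The fit on every gene of at least 1 UMI called 168 genes with WT higher and 275 with WT lower among 15505 genes in this class. Il1b was the 1 of 7 members tested whose groups did not overlap, and such separation was found with WT lower for 14.2% of all genes tested and either way for 21%. Thinned to 2000 UMIs, cells with an Il1b UMI made up 42.6% ± 3.49 in EV and 21.6% ± 3.92 in WT (SD, n = 3 each, exact permutation p = 0.10, the smallest possible). The clusters that made up the class also differed between the groups. Cluster 1, with little Il1b, gave 16.1, 2.1 and 12.1% of the class UMIs in EV and 28.3, 32.3 and 51.6% in WT, and cluster 22, led by Cd209a, gave 22.5, 10.5 and 19.4% in EV and 8.08, 4.94 and 4.73% in WT. Within clusters the log2 fold change of Il1b was -0.60 ± 0.19 in cluster 3, -0.27 ± 0.53 in cluster 1, 0.08 ± 0.45 in cluster 22 and 1.16 ± 0.54 in cluster 13, where h9 alone was at 1434 CPM and the others at 187 to 344 CPM. Adjusted p was 0.592 or above in each of these 4 clusters, and the groups overlapped in each. The direction of the class value did not hold in clusters 13 and 22.

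In CPM, Il1r2 did not follow its macrophage direction in dendritic-cell-like cells, T-cell-like cells or the sum of all hashtagged cells. In dendritic-cell-like cells it was at 160, 256 and 210 CPM in EV and 157, 210 and 91.0 CPM in WT (log2 fold change -0.43 ± 0.26), and in cluster 3 the difference was 0.15 ± 0.24. Over all hashtagged cells it was lower in every WT replicate, 51.0, 73.6 and 64.2 CPM in EV against 42.5, 49.9 and 32.9 CPM in WT (log2 fold change -0.58 ± 0.20, adjusted p = 0.188). In T-cell-like cells its library level was 64.7 CPM in EV and 24.7 CPM in WT. There the share of cells with an Il1r2 UMI, without thinning, was higher in every WT replicate, 5.33 to 8.93% against 3.33 to 5.06%. The log2 ratio of its macrophage to its dendritic level was -4.23 to -2.63 in EV and -1.79 to 0.07 in WT, so the groups did not overlap (p = 0.10, exact two-sided permutation, the smallest possible, adjusted p = 0.50 over the 10 members). For Il1b the same ratio was 0.73 to 1.41 in EV and 1.61 to 1.96 in WT (p = 0.10, exact permutation, adjusted p = 0.50).

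Over all hashtagged cells together Cxcl1 was higher in every WT replicate, at 1.60, 0.918 and 4.27 CPM in EV and 12, 10.4 and 24.7 CPM in WT (log2 fold change 2.71 ± 0.59, adjusted p = 0.168). This size depended on the hashtag call. Over whole libraries, hashtagged or not, Cxcl1 was at 10.6 CPM in EV and 15.1 CPM in WT, a log2 ratio of 0.508. Among hashtagged cells Il1b was lower in every WT replicate, at 822, 973 and 689 CPM against 626, 334 and 653 CPM (log2 fold change -0.62 ± 0.27, adjusted p = 0.234). With Il1r2, 3 of 10 members did not overlap in this sum, where 31.1% of all 14522 genes tested did not (12.1% with WT higher and 19% with WT lower). Of these genes 0 (0%) were called, and 22% had an unadjusted p below 0.05. DESeq2 called 859 genes there, Cxcl1 among them (adjusted p = 0.00103). Melanoma-like cells, at or near 0 for Il1b and Il1r2, gave 17.4, 1.29 and 19.5% of these UMIs in EV and 15.3, 54.9 and 35.9% in WT. The part of this mix in the sums was not tested.

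In fibroblast-like cells the difference in Cxcl1 depended on which cells were counted. Among hashtagged cells it was at 4.37, 14.3 and 6.46 CPM in EV and 103, 0 and 64.5 CPM in WT (log2 fold change 2.79 ± 1.0, adjusted p = 0.736, and 0.000707 with edgeR on every gene of at least 1 UMI). That last fit called 45 genes with WT higher and 142 with WT lower among 14229 genes in this class. The groups overlapped for 4 of 4 members tested there, while 11.7% of all genes separated, 4.86% with WT higher and 6.87% with WT lower. Only 35 of 143 EV and 43 of 213 WT fibroblast-like cells carried exactly 1 hashtag. The 98 EV cells with none had Cxcl1 at 173 CPM (exact Poisson 95% interval 154 to 195) and the 165 WT cells with none at 62.3 CPM (53.6 to 71.9), and over all cells of the class the level was 119 CPM in EV and 66.2 CPM in WT, in the opposite direction. Cxcl5 also depended on the hashtag call: 70.8 CPM in EV and 15.8 CPM in WT among cells with no hashtag, and 42.8 and 45.8 CPM among those with 1. The Il1r1 levels were 34.8 and 30.3 CPM without a hashtag and 34.8 and 25.4 CPM with 1, and its log2 fold change was -0.47 ± 0.43. Neutrophil markers summed to 87.4 to 1385 CPM in the hashtagged EV replicates of the class and 14.7 to 107 CPM in those of WT, and their part in these values was not tested. A library without its hashtags is 1 sample, so these values carry no test, and their intervals cover counting error only.

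**Figure D5:**
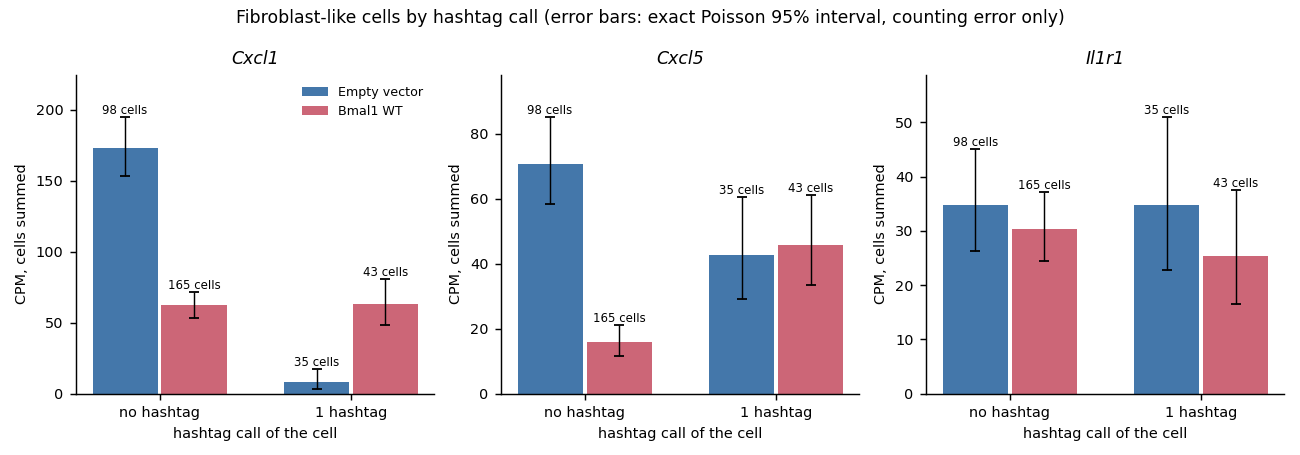
Cxcl1, Cxcl5 and Il1r1 in fibroblast-like cells of Empty vector (blue) and Bmal1 WT (red), in CPM over summed cells with no hashtag or exactly 1, with exact Poisson 95% intervals (counting error only) and the number of cells above each bar. Cxcl1 is higher in EV among cells with no hashtag (173 against 62.3 CPM) and higher in WT among cells with 1 (63.1 against 8.02 CPM), while the Il1r1 intervals overlap.

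Il1b in fibroblast-like cells was at 0, 4.78 and 67.8 CPM in EV and 0, 0 and 5.87 CPM in WT (log2 fold change -3.45 ± 1.41, adjusted p = 0.754, and 0.0196 with edgeR on every gene of at least 1 UMI). Macrophage markers summed to 0 to 655 CPM in the EV replicates and 2.93 to 15.4 CPM in the WT replicates of that class, and in h8 95.2% of the 21 Il1b UMIs came from 1 cell. In melanoma-like cells only Cxcl1 had enough counts to test, with a log2 fold change of -0.52 ± 1.23. Its groups overlapped, while 9.1% of all genes tested in that class separated, 4.34% with WT higher and 4.75% with WT lower.

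Of 60 other genes of the pathway, 51 were tested in macrophage- or monocyte-like cells and 0 were called. Their median log2 fold change was -0.13, against -0.02 over all genes tested, with 18 above 0 and 33 below, and 1 separated with WT higher and 7 with WT lower (7.75% and 8.8% of all genes did). The smallest p-values belonged to Hif1a, the hypoxia factor that myeloid cells also induce through NF-κB, Lcn2, Nfkb1, Ptger2 and Il18r1. Hif1a was at 790, 877 and 942 CPM in EV and 559, 566 and 579 CPM in WT (log2 fold change -0.61 ± 0.13, adjusted p = 0.377). Nfkb1, which encodes the p105 precursor of an NF-κB subunit, was at 345, 404 and 418 CPM in EV and 287, 241 and 231 CPM in WT (-0.62 ± 0.15). Lcn2, a siderophore-binding protein abundant in neutrophils, went the other way, at 1.40, 0 and 3.26 CPM against 6.22, 22.6 and 71.6 CPM (3.99 ± 0.99). Ptger2, a prostaglandin E2 receptor, had a log2 fold change of -0.97 ± 0.31 and Il18r1, the IL-18 receptor, of -1.55 ± 0.50.

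In dendritic-cell-like cells 43 of the 60 were tested and 0 were called, with a median log2 fold change of -0.23 against -0.10 over all genes tested. Of these, 0 separated with WT higher and 7 with WT lower (6.75% and 14.2% of all genes did). The smallest p-values were those of the NF-κB inhibitor Tnfaip3, the atypical IκB genes Nfkbid and Nfkbiz, Hif1a and the chemokine Ccl4. Tnfaip3 was at 316, 382 and 282 CPM in EV and 169, 217 and 172 CPM in WT (log2 fold change -0.81 ± 0.15, adjusted p = 0.0591). Nfkbid had -0.71 ± 0.18, Nfkbiz -0.84 ± 0.23, Hif1a -0.53 ± 0.15 and Ccl4 -0.87 ± 0.26 (adjusted p = 0.140 to 0.179).

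In fibroblast-like cells 30 of the 60 were tested and 0 were called, with a median log2 fold change of -0.50 against -0.06 over all genes tested. Il1rap, the partner chain that Il1r1 needs to signal, was at 35.0, 81.2 and 74.3 CPM in EV and 20.6, 11.8 and 14.7 CPM in WT (log2 fold change -1.96 ± 0.46, adjusted p = 0.639). The inflammatory caspases Casp4 and Casp1 had -1.31 ± 0.39 and -1.39 ± 0.49, and Nfkbia, an inhibitor that NF-κB induces, had 1.20 ± 0.41. Ccl4 was at 74.3, 9.55 and 6.46 CPM in EV and had 0 UMIs in the 3 WT replicates. In NK-cell-like cells it was at 1127 CPM in the EV library and 831 CPM in the WT library. NK markers summed to 3.23 to 179 CPM in the fibroblast-like EV replicates and 3.95 to 11.7 CPM in those of WT. T-cell markers summed to 3.23 to 69.9 and 5.14 to 55.3 CPM. Their part in the fibroblast-like Ccl4 values was not tested. Over all cells of the class, hashtagged or not, EV and WT were at 49.9 and 23.1 CPM for Il1rap, 49.5 and 38.3 CPM for Casp4, 21.2 and 12.9 CPM for Casp1, 158 and 180 CPM for Nfkbia and 10.4 and 0.746 CPM for Ccl4. Of the 34 list genes tested in melanoma-like cells 0 were called. The smallest p was that of Ptgs1, the other cyclooxygenase, at 0, 0 and 0 CPM in EV and 2.0, 26.5 and 0 CPM in WT. Over all cells of the class, hashtagged or not, it was at 7.93 CPM in EV and 21.3 CPM in WT.

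The receptors for the chemokines were scarce among the cells kept. Cxcr2, the receptor for Cxcl1, Cxcl2, Cxcl3 and Cxcl5, had 199 UMIs in 93 of 6364 cells, Cxcr1 had 3 UMIs in 2 cells and the neutrophil marker Ly6g 7 UMIs in 6 cells. No cluster was named for neutrophils, but neutrophil markers were raised in the macrophage- or monocyte-like clusters 7 (4 of 9) and 9 (5 of 9). The list gene Csf3r had 542 UMIs in 307 cells, and 45.8% of the cells of cluster 7 had a UMI of it. Whether the filter of at least 200 genes removed neutrophils was not tested.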

How the data were processed

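The deposited count matrices hold raw UMI counts per gene and barcode, which the authors made with Cell Ranger 6.1.2 per the file headers, with mm10 named in the submitters' processing notes and which carry no normalization. Hashtag counts were in the same matrices. The members and gene lists were chosen with earlier results of these data known.

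Barcodes with at least 200 genes and at most 20% mitochondrial UMIs were kept. A hashtag was called by a 2-component Gaussian mixture, and replicates are cells with exactly 1. Cells with several (368 in EV, 105 in WT) were left out of replicate values and tests as likely doublets but stayed in library, pooled and cluster values; values without them, or without the top cell of a cluster, were added after seeing the data. No other doublet caller was run. Leiden clusters (scanpy 1.11.5, 2000 variable genes without members and list genes, 30 components, 15 neighbours, resolution 1) were named from marker lists. The rules for mitochondria-poor clusters (left unnamed, 444 cells) and for a second naming pass were set after clusters were seen. CPM is UMIs per 1000000 UMIs of the class. UMIs were summed per replicate and class and tested with edgeR 4.0.16 (quasi-likelihood, at least 20 UMIs over 6 replicates, library size the class total, Benjamini-Hochberg 0.05); DESeq2 1.42.0 was an alternative. Tested on simulated counts, edgeR recovered 41% of 2-fold and 100% of 4-fold changes in macrophage- or monocyte-like sums (9937 genes). The 2-fold and 4-fold recovery was 81% and 100% in dendritic-cell-like (10431 genes), 14% and 95% in fibroblast-like (8115), 11% and 85% in melanoma-like (11218) and 24% and 97% in all-cell sums (14378). Unchanged genes called numbered 9, 11, 5, 0 and 7, from macrophage- or monocyte-like to all-cell sums in the same order. The fit on every gene of at least 1 UMI was not tested this way. Every simulated gene had the same spread, the common dispersion of its class. Changes were made only in genes with at least 200 UMIs. The recovery therefore does not cover members with fewer UMIs or with UMIs held mostly by few cells. The highest class was compared with the next on log2(CPM + 5) by exact sign flips, among classes with at least 5 cells in every replicate (melanoma-like cells had 4 in h7). Named genes were the members, the 5 list genes with the smallest p in each class and the genes most alike to each member (those of Il1b are not reported here). Gene positions are from the GRCm38 annotation, and promoters from RefSeq (GRCm38.p6), which matched 9 of 10 members. Intervals and floors (3 UMIs) cover counting error only.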

Additional observations from a re-analysis of the deposited data

How the results depend on the processing

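No paired analysis was possible because the replicates of EV and WT share no hashtag number. Without the count filter edgeR called Il1r2, Cxcl1 and Cxcl2 in macrophage- or monocyte-like, Il1b in dendritic-cell-like and Il1b and Cxcl1 in fibroblast-like cells. DESeq2 called Il1r2, Il1b and, over all cells, Cxcl1. No other alternative called a member in the comparison of WT with EV. The number of genes called in macrophage- or monocyte-like cells was 0, and became 10 with DESeq2, 98 with no filter beyond 1 UMI and 1 within cluster 7. In dendritic-cell-like cells it was 36, and became 65 with TMM scaling, 161 with DESeq2, 443 with no filter, 55 with hashtags called by centred log counts, 6 with a marker gate, 2 within cluster 3 and 0 within clusters 1, 13 and 22, and 0 to 1 with a replicate left out. In fibroblast-like cells it was 0, 6 with DESeq2, 187 with no filter and 0 to 1 with a replicate left out, in melanoma-like cells 0, 4, 23 and 0 to 4, and over all cells 0 and, with DESeq2, 859. Members higher in every replicate in their highest class numbered 6, and 6 to 8 with a replicate left out. Member and class pairs without overlap numbered 3, and 4 to 6 with a replicate left out. Separation over all genes rose too. In macrophage- or monocyte-like cells it went from 781 higher and 887 lower in WT to 1026 to 1710 and 1267 to 1637. For the share of cells with a UMI the pairs numbered 5 without thinning. Among them, Il1r2 in dendritic-cell-like cells was at 20.442% or above in EV and 20.438% or below in WT. T-cell-like cells, not among these pairs, separated for Il1r1, with WT lower, and for Il1r2, Cxcl2 and Cxcl3, with WT higher. The share over all genes is not reported here for cell shares.

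Signs changed for log2 differences that missed the threshold. In macrophage- or monocyte-like cells Ptgs2 was -0.0019 in cluster 4 and -0.0793 over whole libraries, Il1a was -0.91 in cluster 7, -0.36 in cluster 9 and -0.12 over libraries, Il1b 0.22 in cluster 7 and Cxcl3 -0.95 in cluster 9. In dendritic-cell-like cells Il1rn was -0.0183 with the marker gate and -0.22 with members and list genes in the clustering, Il1b 1.16 and Cxcl2 1.82 in cluster 13, Il1a 0.0495, Il1b 0.0764 and Ptgs2 0.50 in cluster 22, and Il1r2 0.15 and Ptgs2 0.18 in cluster 3. In fibroblast-like cells Cxcl1 was -1.02 with centred log hashtags and -0.84 over libraries, and Cxcl5 -1.95, -1.55 and, with the marker gate, -0.71. In melanoma-like cells Cxcl1 was 0.58 and 0.75, and over all cells Cxcl2 was -0.0414 and -0.26 and Cxcl5 -0.64 and -0.96, with those hashtags and over libraries. The class difference of Cxcl1 was -0.96 with those hashtags. With a replicate left out, the ranges that crossed 0 were, in macrophage- or monocyte-like cells, -0.27 to 0.72 for Il1a, -2.22 to 4.61 for Cxcl3 and -0.12 to 0.50 for Ptgs2, in dendritic-cell-like cells -0.24 to 0.43 for Il1rn and -0.61 to 0.30 for Ptgs2, and -0.98 to 2.29 for Cxcl5 in fibroblast-like cells. Over all cells they were -0.0949 to 0.943 for Cxcl2, -1.79 to 4.25 for Cxcl3, -0.60 to 3.05 for Cxcl5 and -0.45 to 0.26 for Ptgs2, and -0.33 to 0.83 for the class difference of Cxcl1. The cause of these changes was not tested. The fibroblast-like class rests on 35 and 43 hashtagged cells and the melanoma-like h7 on 4.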
